A study of Mus musculus with 12 samples.

Results

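Mitochondria make only a few of their own proteins, and the machinery described here brings in the rest. It comprises 34 genes, those whose symbols begin with Tomm or Timm and a digit, together with Grpel1, Grpel2, Pam16, Chchd4, Gfer, Samm50, Mtx1, Mtx2, Pmpca and Pmpcb, of 23457 rows in the deposited count table. Their messenger RNA was measured in the hearts of 6 Parkin KO and 6 noninduced adult mice of the C57BL/6J strain, all floxed at Parkin and collected 9 to 10 weeks after tamoxifen. Parkin KO mice also carried MerCreMer, a tamoxifen-activated Cre recombinase described in the labels as giving an adult-induced cardiac knockout, and noninduced mice are labelled as without Cre (reads of 2 of these libraries go against that, as given below), so Parkin loss and the presence of MerCreMer cannot be told apart. RNA came from the frozen ventricular apex, although the tissue label reads whole heart, and polyadenylated RNA was sequenced as single-end libraries without strand, 1 per heart. Parkin tags failing mitochondria with ubiquitin so that they are cleared, and the comparison asks what its loss in the adult heart does to messenger RNA.

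Precursor proteins made in the cytosol are first bound by receptors of the TOM complex (translocase of the outer membrane) and pass through its Tom40 channel. Barrel-shaped outer membrane proteins are then built in by SAM, carrier proteins are escorted by the small TIM chaperones to TIM22, and proteins with a presequence pass through TIM23, are pulled into the matrix by an Hsp70 motor and lose the presequence to the matrix processing peptidase. The MIA relay folds intermembrane space proteins by forming disulfide bonds. The kinase PINK1, which activates Parkin, is itself imported and destroyed in healthy mitochondria and held at the TOM complex, with Tomm7, when import fails, which ties this machinery to Parkin.

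Of the 34 genes, 32 passed the filter on low counts. Of these, 29 had a higher mean level in Parkin KO than in noninduced hearts (90.6%, against 52% of all tested genes). The median log2 fold change of the 32 was 0.17 (1.12-fold), against 0.01 for all tested genes. Genes of mitochondrial complex I had 40 of 44 above 0 and a median of 0.20. None of the 32 import genes passed the test over all genes. The highest log2 fold changes were those of Timm13 (0.37) and Timm8a1 (0.36), chaperones of the intermembrane space, the channel subunit Timm17a (0.30) and the outer membrane assembly protein Samm50 (0.27). The 3 lower genes were Tomm6, at -0.63, Timm17b, at -0.23, and Pam16, at -0.07. Noninduced libraries 1 and 2 between them held the lowest value of most of the 32 genes. The median was 0.12 without library 1 and 0.09 without library 2. Without both, a choice made after seeing the data, it was 0.07. In that setting 26 of 32 genes lay above 0, against 48.4% of all tested genes. As these 2 libraries read low, leaving them out was bound to lower the median.

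Promoter sequences are shown for Grpel1, whose groups did not overlap, the receptor gene Tomm20, the channel gene Timm23, and Tomm6, lowest in fold change. Each is the stretch of 250 bases before the RefSeq start in GRCm38.p6, printed 5′ to 3′ on the gene's own strand. Capitals mark matches, on either strand, to the NRF1 core GCGCANGC or the ETS core CCGGAAG, the motif bound by ETS factors such as GABP, both textbook regulators of nuclear genes for mitochondria. The stretches are chr5:36464935-36465184 (plus strand) for Grpel1, chr8:126945922-126946171 (minus) for Tomm20, chr14:32201892-32202141 (minus) for Timm23 and chr17:47688387-47688636 (minus) for Tomm6.
Grpel1: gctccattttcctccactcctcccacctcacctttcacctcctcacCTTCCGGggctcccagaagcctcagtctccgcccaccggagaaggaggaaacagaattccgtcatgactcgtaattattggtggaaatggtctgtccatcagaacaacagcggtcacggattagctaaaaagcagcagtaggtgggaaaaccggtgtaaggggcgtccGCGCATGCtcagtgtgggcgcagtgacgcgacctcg
Tomm20: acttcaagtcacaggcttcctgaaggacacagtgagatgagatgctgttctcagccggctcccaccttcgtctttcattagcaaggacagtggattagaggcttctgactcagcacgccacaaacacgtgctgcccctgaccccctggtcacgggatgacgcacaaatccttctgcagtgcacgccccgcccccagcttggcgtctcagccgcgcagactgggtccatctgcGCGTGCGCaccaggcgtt
Timm23: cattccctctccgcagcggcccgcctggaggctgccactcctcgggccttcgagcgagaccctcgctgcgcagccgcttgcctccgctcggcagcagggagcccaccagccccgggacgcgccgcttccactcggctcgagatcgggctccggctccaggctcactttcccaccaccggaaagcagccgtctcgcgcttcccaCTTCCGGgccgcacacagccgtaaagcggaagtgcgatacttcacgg
Tomm6: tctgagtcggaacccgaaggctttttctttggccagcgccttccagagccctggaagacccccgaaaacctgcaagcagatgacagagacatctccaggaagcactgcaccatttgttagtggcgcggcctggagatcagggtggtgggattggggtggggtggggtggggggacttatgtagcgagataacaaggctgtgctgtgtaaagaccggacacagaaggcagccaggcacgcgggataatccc

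The Grpel1 stretch holds 1 ETS core and 1 NRF1 core, the Tomm20 stretch 1 NRF1 core, the Timm23 stretch 1 ETS core and the Tomm6 stretch neither. By the GENCODE start of Grpel1, 36464998, most of its stretch, with the NRF1 core, lies inside the gene. RefSeq promoters were matched for 28 of the 32 tested genes. The ETS core lay in 11 of the 28 (39.3%), against 14.9% of 9628 tested genes with a promoter and 6.9% of all 32851 promoters. These 11 are Grpel1, Mtx1, Mtx2, Pmpca, Pmpcb, Timm10, Timm23, Timm8b, Tomm22, Tomm34 and Tomm70a. The NRF1 core lay in 5 (17.9%), namely Chchd4, Grpel1, Pam16, Timm13 and Tomm20, against 18.3% of tested genes and 8.3% of all promoters. The ERR motif AAGGTCA lay in 1 (3.6%, Timm8b), against 3.5% of tested genes and 4.1% of all promoters, and the YY1 core GATGGCG in 0, against 4.1% and 2.2%. The 4 printed stretches do not stand for the rest. Of genes higher at an unadjusted p under 0.05 (edgeR), Samm50, Timm17a, Timm44, Timm50 and Gfer held neither the ETS nor the NRF1 core. Grpel1, Timm13, Timm23, Timm8b and Tomm20, also higher, held at least 1 of them. Pam16, whose log2 fold change was -0.07, held the NRF1 core. These shares describe letters in a window and were not tested.

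Total counts per library ran from 13787150 to 16736228 in Parkin KO and from 11610507 to 16884516 in noninduced hearts. Esr1, on which reads of the MerCreMer receptor domains can be counted, stood at 1553 to 4683 CPM (counts scaled to a common library size) in Parkin KO and 24.0 to 962 CPM in noninduced libraries, with 558 CPM in noninduced library 1 and 962 CPM in noninduced library 3. Y-linked genes had 495 to 634 counts in Parkin KO libraries 2, 5 and 6, 178 in noninduced library 3 and at most 7 in the others. Xist, a marker of female cells, stood at 0.704 to 5.25 CPM in Parkin KO libraries 2, 5 and 6. It stood at 77.2 CPM in noninduced library 3 and 84.2 to 133 CPM in the others. The sexes were thus not balanced between the groups, and noninduced library 3 held reads of both kinds, the source of which was not tested. Genes of mitochondrial DNA took 4.79 to 8.98% of counts in Parkin KO and 6.25 to 15.4% in noninduced libraries, with 15.2% and 15.4% in noninduced libraries 1 and 2. Heart muscle markers were abundant throughout, at a summed 72661 to 90664 CPM in Parkin KO and 53815 to 83000 CPM in noninduced libraries, with 7 of 7 listed markers higher in Parkin KO. Atrial markers, which the apex should lack, summed to 150 to 1530 CPM in Parkin KO and 116 to 5763 CPM in noninduced libraries, with 5 of 5 lower in Parkin KO. Of all tested genes, 52% had a log2 fold change above 0. Higher in Parkin KO were 2 of 6 fibroblast, 3 of 5 endothelial, 1 of 5 smooth muscle and pericyte and 1 of 4 macrophage markers. The only tested red blood cell and brown adipocyte markers were also higher. The part of these differences in the results below was not tested.

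The row of the deleted gene, Park2, held 24 to 45 counts in Parkin KO and 24 to 45 counts in noninduced libraries, so it did not separate the groups. A count over the whole gene includes exons outside the deleted part, which cannot check the deletion.

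The count of import genes past an adjusted p of 0.05 was 0 of 32 (edgeR, quasi-likelihood F test, Benjamini-Hochberg), against 0 (0%) of all 13050 genes tested. Their smallest adjusted p was 0.417, and DESeq2 and limma-voom also called 0 of them. At an unadjusted p under 0.05, 11 of the 32 (34.4%) were higher in Parkin KO hearts, against 5.82% of all tested genes, and 1 (3.12%), Tomm6, was lower, against 5.54%. A log2 fold change above 0 was found for 29 of 32 (90.6%), against 52% of all tested genes, whose median was 0.01. Groups did not overlap, with Parkin KO higher, for 1 gene (3.12%), Grpel1, against 0.23%, and with Parkin KO lower for 0, against 0.115%. The list was chosen with earlier results of these data known, so these shares describe it and carry no test.

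The count of 11 changed when single libraries were left out, and so did the share over all tested genes. It was 3 without noninduced library 2 (2.74% of all tested genes), 6 without noninduced library 1 (2.95%), 7 without Parkin KO library 4 (3.55%) and 7 without Parkin KO library 6 (3.23%). The count of 1 lower gene was 2 without Parkin KO library 5 (5.05% of all tested genes), noninduced library 4 (8.64%) or noninduced library 6 (8.20%). The median log2 fold change was 0.09 without noninduced library 2. Without noninduced libraries 1 and 2 together, a choice made after seeing the data, 1 gene was higher at an unadjusted p under 0.05 (Tomm40l), against 1.83% of all tested genes. In that setting 0 were lower, against 2.94% of all tested genes, and 26 of 32 lay above 0, against 48.4%. Without the 4 libraries with Y-linked reads, 2 genes were higher, Timm10b and Timm13, against 2.15% of all tested genes. That setting left out Parkin KO libraries 2, 5 and 6 and noninduced library 3, so it compared fewer hearts. Its median was 0.15, and 28 of 32 genes lay above 0, against 49.6% of all tested genes. Without the libraries labelled noninduced 1 and 3, whose Esr1 level goes against their label, 3 were higher, against 2.66% of all tested genes, and the median was 0.15. Without noninduced libraries 2 and 5, left out for their atrial genes in earlier results of these data, 4 were higher, against 3.62% of all tested genes, and the median was 0.10. Noninduced library 6, which was kept in that comparison, had a summed atrial marker level of 4054 CPM, against 3202 CPM in noninduced library 2 and 5763 CPM in noninduced library 5.

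**Figure D1:**
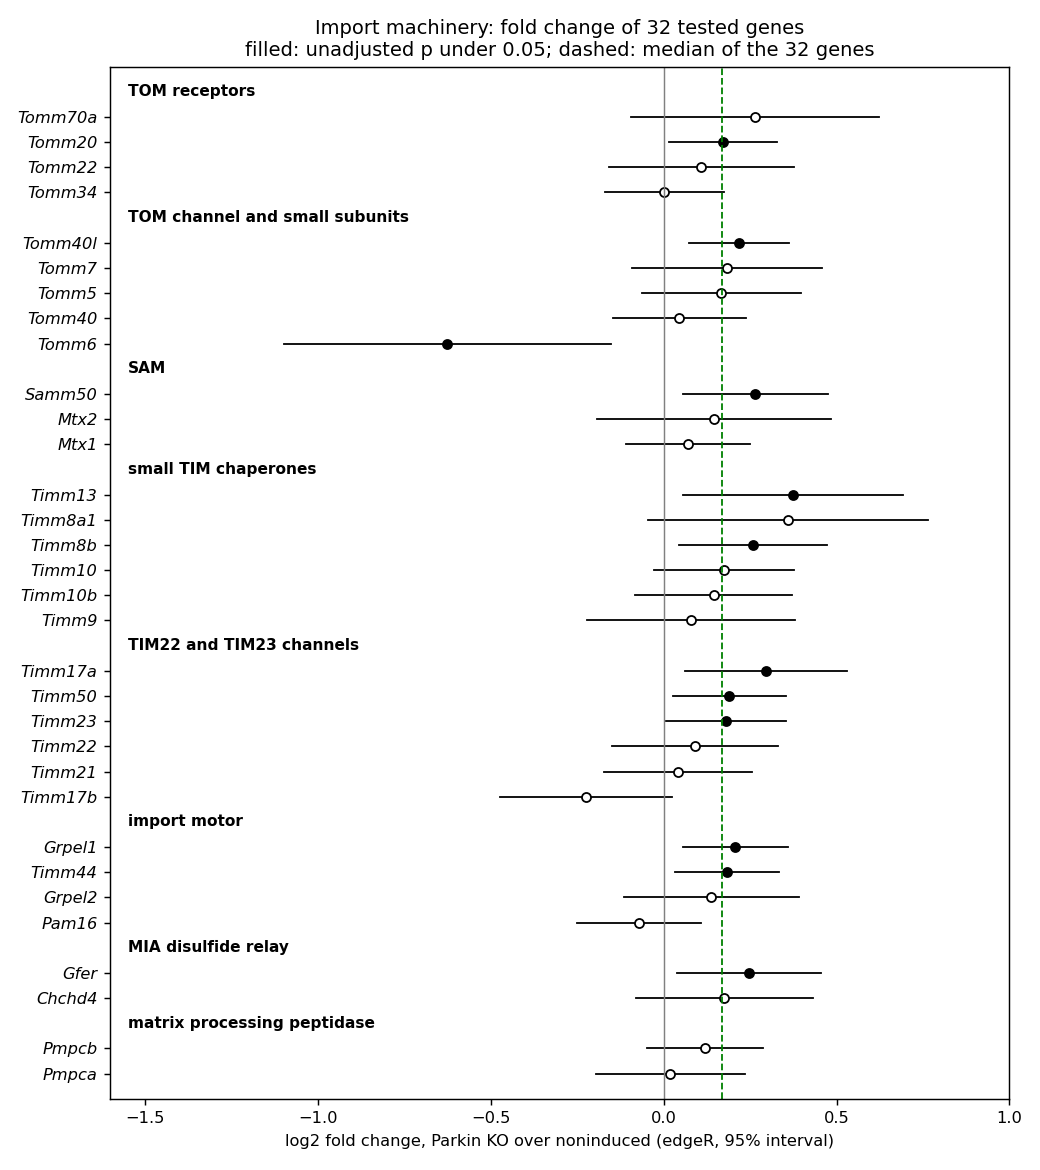
Log2 fold change of 32 import genes, Parkin KO over noninduced (x axis), with approximate 95% intervals from edgeR, grouped by role down the page. Filled points have an unadjusted p under 0.05, and the dashed line is the median, 0.17; 29 points lie right of 0 and Tomm6 lies farthest left at -0.63.

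The precision was high for most of these genes. The median half-width of the 95% interval of a log2 fold change was 0.215, against 0.286 over all tested genes. For 28 of 32 genes the whole interval lay within a 1.5-fold change in either direction, and for 9265 of all 13050 tested genes. Within groups, the SD of log2 CPM had a median of 0.178 over the 32 genes, against 0.235 over all tested genes. Beyond the overlaps named with each gene below, Pmpca shares 20.4% of its exon bases with Inpp5e, Timm8b 15.6% with Nkapd1, Grpel1 11.6% with Tada2b and Timm10b 11.6% with Arfip2 and Gm22504 on the opposite strand and 10.5% with Gm45799 on its own, and Gfer, Grpel2, Pam16, Timm17a and Timm8a1 each have 1 near-identical stretch in another annotated transcript, which makes their counts less certain. In bulk tissue, fewer cells of a type and less RNA per cell cannot be told apart.

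The receptors of the TOM complex had small differences. Tomm20, a marker of the machinery and the receptor that first binds presequences (chromosome 8, 126930667 to 126945844, protein-coding), had a lowest, median and highest level of 37.0, 44.2 and 45.4 CPM in Parkin KO hearts, against 35.6, 37.9 and 41.5 CPM in noninduced hearts. Parkin KO libraries 1, 2, 4 and 5 lay above every noninduced library, and libraries 3 and 6 lay within the noninduced range. The log2 fold change was 0.17 ± 0.074 (SE; edgeR, unadjusted p = 0.0347, Benjamini-Hochberg adjusted p = 0.424). Tomm20 has 4 near-identical annotated copies, so how its reads were shared among them is uncertain. Tomm22, the central receptor, had a log2 fold change of 0.11, Tomm70a, the receptor for carrier precursors, 0.26, and Tomm34, a cytosolic cochaperone of import, 0.00. Tomm20l, a Tomm20-like gene, had 0 to 2 counts in Parkin KO and 0 to 5 in noninduced libraries and was too low to test.

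In the TOM channel, the main pore gene differed by less than the spread between libraries, and its relative had a higher mean in Parkin KO hearts. Tomm40, which encodes the pore (chromosome 7, 19701313 to 19715438), had 85.0, 101 and 116 CPM (lowest, median and highest) in Parkin KO hearts, against 88.4, 95.3 and 110 CPM in noninduced hearts. The groups overlapped fully, with the lowest library of all in the Parkin KO group. Its log2 fold change was 0.05 ± 0.0898 (SE), with a 95% interval of -0.15 to 0.24. Tomm40l, which encodes a Tom40-like protein (chromosome 1, 171216011 to 171222514), had 68.7, 80.5 and 81.8 CPM in Parkin KO hearts, against 64.1, 66.6 and 71.2 CPM in noninduced hearts. All Parkin KO libraries but number 1 lay above the highest noninduced library. Its log2 fold change was 0.22 ± 0.0678 (SE), the smallest unadjusted p of the machinery at 0.00604 (edgeR, adjusted p = 0.417). Exons of Nr1i3 on the opposite strand cover 64.3% of the exon bases of Tomm40l, and reads without strand cannot separate them. Nr1i3 itself held 0.128 to 0.584 CPM in Parkin KO and 0.266 to 0.583 CPM in noninduced libraries. How reads in the shared bases were counted is not known, so this level cannot show what part of the Tomm40l count they make up.

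The small TOM subunits, single-span proteins that stabilise the complex, differed in direction. Tomm6 (chromosome 17, 47686646 to 47688386) had 39.5, 51.6 and 81.1 CPM in Parkin KO hearts, against 48.9, 75.9 and 130 CPM in noninduced hearts. Noninduced libraries 1 and 2 were the highest, at 130 and 105 CPM, and the groups overlapped, with noninduced library 4 below 4 Parkin KO libraries. Parkin KO over noninduced, the log2 fold change was -0.63 ± 0.222 (SE; edgeR, unadjusted p = 0.0130, adjusted p = 0.417), and -0.33 without noninduced libraries 1 and 2. The read-through gene Gm21981 covers 76.0% of its exon bases and exons on the opposite strand, of Tomm6os and Usp49, 27.6%, so its counts are uncertain. Tomm7, the other marker and the subunit that in human cells helps hold PINK1 at the outer membrane (chromosome 5, 23838944 to 23844161), had 38.8, 42.6 and 45.5 CPM in Parkin KO hearts, against 27.2, 38.9 and 48.8 CPM in noninduced hearts. The Parkin KO values lay within the noninduced range, which was set by low libraries 1 and 2 and high library 4. On the log2 scale the fold change was 0.18 ± 0.129 (SE; edgeR, adjusted p = 0.560), and -0.00317 without noninduced libraries 1 and 2. Tomm5, the remaining small subunit, had a log2 fold change of 0.17.

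All 3 SAM genes had a higher mean in Parkin KO hearts, against 52% of all tested genes with a log2 fold change above 0. Samm50, the barrel protein at the core of SAM (chromosome 15, 84192241 to 84217267), had 166, 172 and 193 CPM in Parkin KO hearts, against 109, 151 and 174 CPM in noninduced hearts. Noninduced library 4 alone reached into the Parkin KO range, and noninduced library 1 was lowest. The log2 fold change was 0.27 ± 0.0982 (SE; edgeR, unadjusted p = 0.0167, adjusted p = 0.424), and 0.15 without noninduced libraries 1 and 2. The metaxins Mtx1 and Mtx2, cytosol-facing partners of Samm50, had log2 fold changes of 0.07 and 0.15. Exons of Thbs3 and Gm43737 on the opposite strand together cover 30.1% of the exon bases of Mtx1, so its counts are uncertain.

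**Figure D2:**
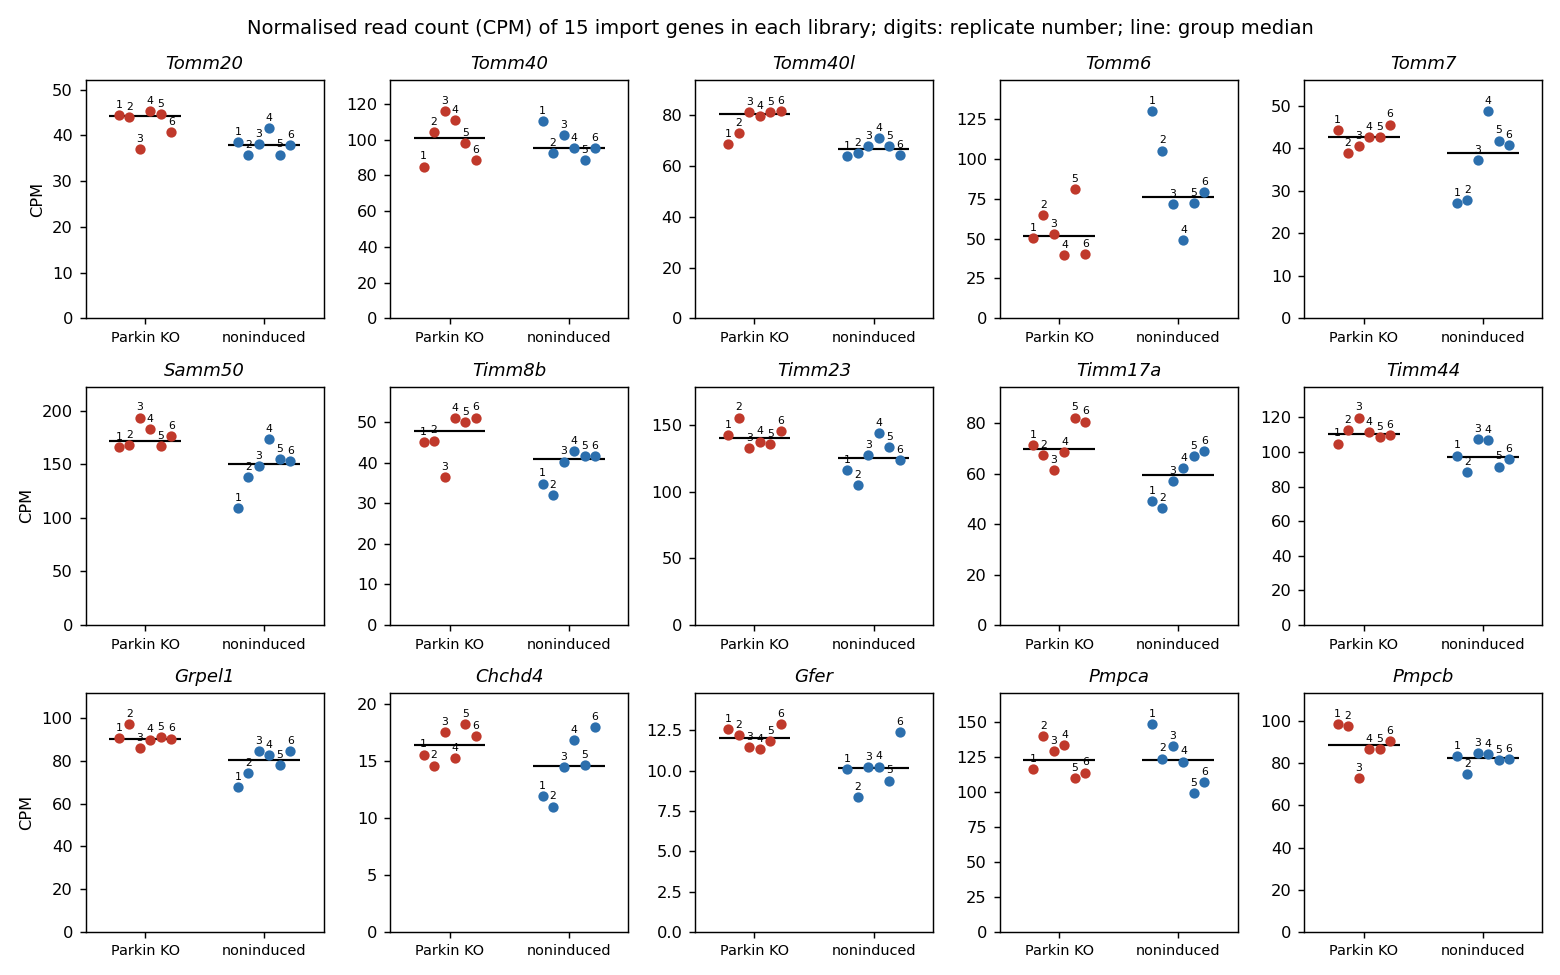
Normalised read count (CPM, y axis from 0) of 15 import genes in each library, Parkin KO left and noninduced right in each panel; digits are replicate numbers and lines group medians. Grpel1 is the panel in which the groups do not overlap, and noninduced libraries 1 and 2 are the highest points for Tomm6 and the lowest for Tomm7, Samm50, Timm8b, Timm23, Timm17a, Grpel1 and Chchd4.

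The small TIM chaperones, which carry hydrophobic precursors across the intermembrane space, had the highest median log2 fold change of the 8 role groups, 0.22. The MIA relay was close behind, at 0.21. Of the small TIM chaperones, 6 of 6 tested members lay above 0, against 52% of all tested genes. At an unadjusted p under 0.05, 2 of them were higher, against 5.82% of all tested genes. Timm8b, a partner of Timm13 (chromosome 9, 50603910 to 50605320), had 36.6, 47.7 and 51.1 CPM in Parkin KO hearts, against 32.04, 41.0 and 42.9 CPM in noninduced hearts. All Parkin KO libraries but number 3 lay above the highest noninduced library. Its log2 fold change was 0.26 ± 0.1003 (SE; edgeR, unadjusted p = 0.0217, adjusted p = 0.424). Timm13, which forms a complex with Timm8 proteins, had 36.1, 42.4 and 52.5 CPM in Parkin KO hearts, against 22.9, 36.2 and 41.2 CPM in noninduced hearts. Its lowest libraries were noninduced 1 and 2, and the groups overlapped. Timm13 had the highest log2 fold change of the machinery, 0.37 ± 0.149 (SE; edgeR, unadjusted p = 0.0244, adjusted p = 0.424). Timm8a1, whose human counterpart is mutated in deafness-dystonia syndrome, was at 0.36, with 6.06 to 8.51 CPM in Parkin KO and 2.94 to 7.35 CPM in noninduced hearts. Of the remaining chaperones of this group, Timm10 was at 0.17, Timm10b at 0.14 and Timm9 at 0.08. Timm8a2, a near relative of Timm8a1, had 0 to 2 counts in Parkin KO and 0 to 2 in noninduced libraries and was too low to test.

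Among the inner membrane channels, the paralogs Timm17a and Timm17b lay on opposite sides of 0. Timm23, the pore-forming subunit of TIM23 (chromosome 14, 32180162 to 32201898), had 133, 140 and 156 CPM in Parkin KO hearts, against 105, 126 and 144 CPM in noninduced hearts. Noninduced libraries 4 and 5 lay within the Parkin KO range and the others below it. Parkin KO over noninduced, the log2 fold change was 0.18 ± 0.0817 (SE; edgeR, unadjusted p = 0.0440, adjusted p = 0.432), 0.12 without noninduced library 2 and 0.09 without noninduced libraries 1 and 2. Timm23 has 5 near-identical annotated copies, which makes its count uncertain. Timm17a, a form of the Tim17 subunit beside the pore (chromosome 1, 135295213 to 135313778), had 61.3, 69.9 and 82.2 CPM in Parkin KO hearts, against 46.4, 59.7 and 69.1 CPM in noninduced hearts. Noninduced libraries 1 and 2 were lowest and the other noninduced libraries but number 3 reached into the Parkin KO range. On the log2 scale the fold change was 0.30 ± 0.110 (SE; edgeR, unadjusted p = 0.0171, adjusted p = 0.424), and 0.16 without noninduced libraries 1 and 2. Timm17b, the other Tim17 form, had 30.3, 35.2 and 40.3 CPM in Parkin KO hearts, against 33.8, 38.3 and 52.5 CPM in noninduced hearts. Its highest libraries were noninduced 1 and 2, the reverse of Timm17a, and the remaining libraries of the groups overlapped. Timm17b had a log2 fold change of -0.23 ± 0.117 (SE; edgeR, unadjusted p = 0.0720, adjusted p = 0.448). Timm50, the presequence receptor of TIM23, was at 0.19 ± 0.0768 (SE; edgeR, unadjusted p = 0.0259, adjusted p = 0.424), Timm21, a TIM23 subunit that contacts TOM, at 0.04, and Timm22, the carrier channel, at 0.09.

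In the import motor, Grpel1 was the only one of the 32 tested members whose groups did not overlap. Grpel1, the nucleotide exchange factor of matrix Hsp70 (chromosome 5, 36464998 to 36474080), had 86.3, 90.6 and 97.2 CPM in Parkin KO hearts, against 67.8, 80.6 and 84.6 CPM in noninduced hearts. Every Parkin KO library lay above every noninduced library, although the nearest pair was close, at 86.3 and 84.6 CPM. The log2 fold change was 0.21 ± 0.0713 (SE; edgeR, unadjusted p = 0.0111, adjusted p = 0.417), and 0.13 without noninduced libraries 1 and 2. With scaling to library totals alone its groups overlapped. Timm44, which anchors Hsp70 to the channel (chromosome 8, 4259731 to 4275913), had 105, 111 and 120 CPM in Parkin KO hearts, against 88.4, 97.0 and 107 CPM in noninduced hearts. Noninduced libraries 3 and 4 lay just above Parkin KO library 1, the lowest of its group. Its log2 fold change was 0.18 ± 0.0706 (SE; edgeR, unadjusted p = 0.0209, adjusted p = 0.424). Grpel2, the second exchange factor, was at 0.14. Pam16, a regulatory J-like subunit of the motor, was at -0.07. It shares 18.7% of its exon bases with Glis2, which had a log2 fold change of -0.32 (edgeR, unadjusted p = 0.00210, adjusted p = 0.417). Among other overlapping genes, Usp49 (with Tomm6) was at -0.01, Thbs3 (with Mtx1) at 0.00 and Inpp5e (with Pmpca) at 0.00. Tada2b (with Grpel1) was at 0.09 and Arfip2 (with Timm10b) at 0.16. The part of these overlaps in the fold changes of the import genes was not tested.

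The disulfide relay has 2 members here. Chchd4, the Mia40 oxidoreductase (chromosome 6, 91462172 to 91473546), had 14.6, 16.4 and 18.2 CPM in Parkin KO hearts, against 10.997, 14.5 and 17.98 CPM in noninduced hearts. The groups overlapped, and noninduced libraries 1 and 2 were lowest. Parkin KO over noninduced, the log2 fold change was 0.18 ± 0.120 (SE; edgeR, adjusted p = 0.553), and 0.03 without noninduced libraries 1 and 2. Gfer, the sulfhydryl oxidase that recharges it (chromosome 17, 24693187 to 24696156), had 11.3, 12.01 and 12.9 CPM in Parkin KO hearts, against 8.34, 10.2 and 12.4 CPM in noninduced hearts. Noninduced library 6 alone lay within the Parkin KO range. On the log2 scale the fold change was 0.25 ± 0.0972 (SE; edgeR, unadjusted p = 0.0231, adjusted p = 0.424).

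The matrix processing peptidase had the lowest median log2 fold change of the role groups, 0.07. Pmpca, its substrate-binding subunit (chromosome 2, 26389339 to 26397122), had 110, 123 and 140 CPM in Parkin KO hearts, against 99.3, 123 and 149 CPM in noninduced hearts. The Parkin KO values all lay inside the noninduced range, and the log2 fold change was 0.02 ± 0.101 (SE), with a 95% interval of -0.20 to 0.24. Its sign turned with RLE size factors (the DESeq2 method) in place of TMM, at -0.000116, and when Parkin KO library 2, 3 or 4 or noninduced library 5 or 6 was left out, at -0.04 in the lowest case. Pmpcb, the catalytic subunit (chromosome 5, 21737141 to 21757152), had 73.1, 88.7 and 98.5 CPM in Parkin KO hearts, against 74.7, 82.7 and 85.0 CPM in noninduced hearts. Its highest 5 libraries were all from Parkin KO hearts and its lowest was Parkin KO library 3. The log2 fold change was 0.12 ± 0.0787 (SE; edgeR, adjusted p = 0.536), and 0.08 without noninduced library 2, the lowest of its group.

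The libraries differed as wholes in a way the groups do not fully describe. Noninduced library 2 was the lowest of the 12 libraries for 17 of the 32 genes, and noninduced library 1 for 6. These 2 libraries were together the lowest for 15 of 32 genes, an arrangement found for 11.6% of all tested genes. They were together the highest for 3, Pam16, Timm17b and Tomm6, which are the 3 genes with a log2 fold change below 0 (10.1% of all tested genes had that arrangement). The same 2 libraries had the highest shares of mitochondrial DNA counts and the lowest scaling factors, 0.884 and 0.909, and the part of either in the import genes was not tested.

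Summed over the 34 genes, Parkin KO libraries held 1608 to 1685 CPM and noninduced libraries 1416 to 1590 CPM. All 6 Parkin KO sums lay above the highest noninduced sum, and the ratio of the means was 1.08. This separation depended on the scaling. Over the 32 tested genes, 6 sums again lay above with RLE size factors, but with library totals alone the sums were 1603 to 1725 in Parkin KO and 1287 to 1690 in noninduced libraries, and only 3 lay above.

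**Figure D3:**
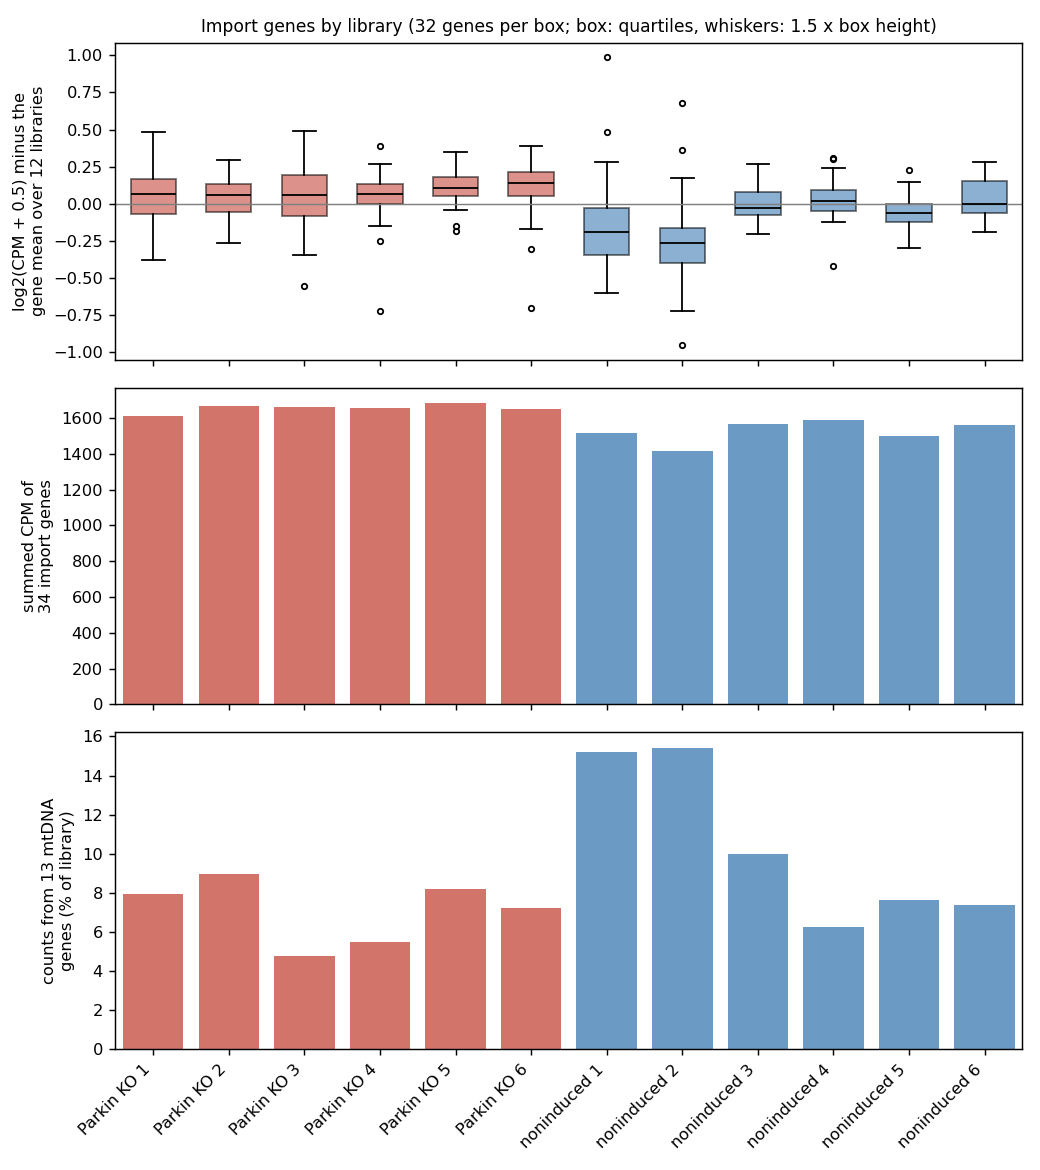
Import genes in each library, Parkin KO left and noninduced right: top, log2(CPM + 0.5) of 32 genes minus the gene's mean over 12 libraries (box: quartiles; whiskers: 1.5 box heights); middle, summed CPM of 34 genes; bottom, percent of counts from mitochondrial DNA genes. Noninduced libraries 1 and 2 have the lowest boxes and the highest mitochondrial DNA shares, 15.2% and 15.4%.

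Ratios between related members were compared within libraries, where the scaling enters only through the pseudocount of 0.5 CPM. Of 7 pairs, none passed after Benjamini-Hochberg adjustment. The log2 ratio of Timm17a to Timm17b averaged 1.03 ± 0.219 over Parkin KO hearts and 0.51 ± 0.483 over noninduced hearts (SD, n = 6 each), a difference of 0.52 (two-sided exact permutation p = 0.0325, or 0.227 when adjusted over 7 pairs). Noninduced libraries 1 and 2 had ratios of -0.10 and -0.06, and all others lay between 0.56 and 1.40. Without those 2 libraries the difference was 0.22 (exact permutation p = 0.143). The log2 ratio of Tomm40 to Tomm40l averaged 0.36 ± 0.162 over Parkin KO hearts and 0.54 ± 0.143 over noninduced hearts (SD, n = 6 each), a difference of -0.17 (exact permutation p = 0.0801, adjusted p = 0.280). For Grpel1 to Grpel2, Timm8a1 to Timm8b, Timm10 to Timm10b, Mtx1 to Mtx2 and Pmpca to Pmpcb the difference ran from -0.09 to 0.15 (exact permutation p between 0.429 and 0.758). The highest of these, 0.15 for Timm8a1 to Timm8b, was 0.03 without Parkin KO library 3, 0.05 without noninduced library 2 and 0.07 with a pseudocount of 2 CPM. The smallest p that 6 against 6 libraries allow is 0.00216.

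**Figure D4:**
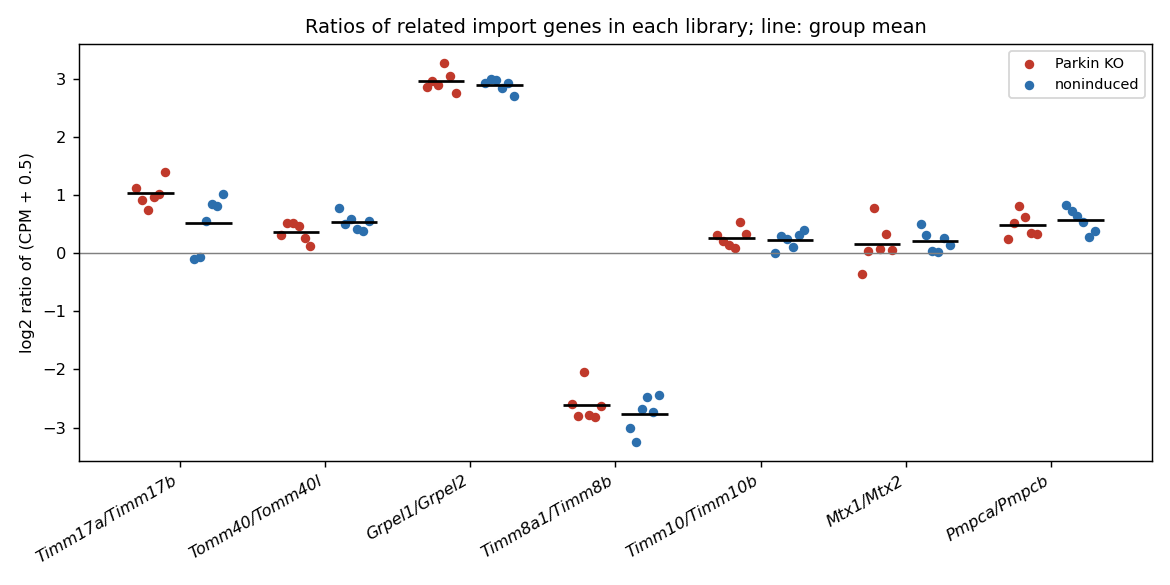
Log2 ratio of (CPM + 0.5) for 7 pairs of related import genes in each library (points), Parkin KO left and noninduced right in each pair, with group means as lines. For Timm17a to Timm17b the 2 lowest points, near -0.10 and -0.06, are noninduced libraries 1 and 2.

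Levels between genes were compared per length, as the deposited FPKM (fragments per kilobase of transcript, scaled to sequencing depth). The median over 12 libraries ran from 165 FPKM for Pam16, 140 FPKM for Timm23, 133 FPKM for Timm8b and 109 FPKM for Samm50 down to 8.30 FPKM for Tomm20, 8.15 FPKM for Gfer, 6.82 FPKM for Timm8a1, 5.11 FPKM for Tomm70a and 2.75 FPKM for Grpel2. Tomm20l and Timm8a2 had a median of 0 FPKM. The pore genes differed in level, with Tomm40 at 69.5 FPKM and Tomm40l at 26.2 FPKM, and so did the exchange factors, with Grpel1 at 27.2 FPKM.

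Neighbours in this order mostly overlapped. Pam16 had 147 to 174 FPKM in Parkin KO and 147 to 174 FPKM in noninduced libraries, and Timm23, next in order, 134 to 150 and 96.1 to 150 FPKM in the same groups. Timm44 and Pmpcb, at medians of 64.9 and 60.4 FPKM, likewise did not differ beyond the spread of their libraries. Grpel2 and Tomm70a were apart in Parkin KO hearts, where the highest Grpel2 value was 3.33 FPKM and the lowest Tomm70a value 4.23 FPKM, and overlapped in noninduced hearts, at up to 3.37 and down to 2.62 FPKM. The order depends on the transcript models behind the values. With CPM divided by the length of all annotated exons, Pam16 was 12th rather than first, 6 of the top 10 genes were shared, and Spearman's rho across genes, which are not independent replicates, was 0.867.

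**Figure D5:**
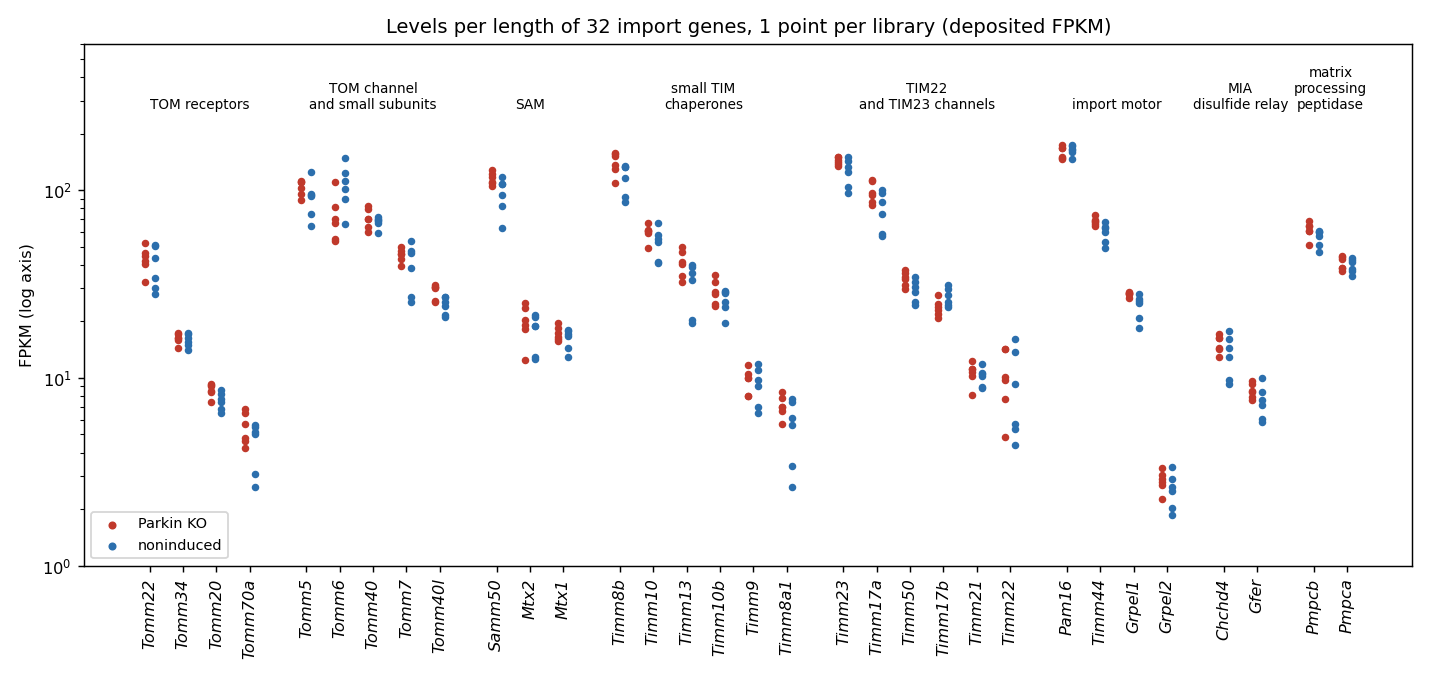
Deposited FPKM (log axis) of 32 import genes, 1 point per library, grouped by role; Parkin KO points are left of noninduced points for each gene. Levels span from 2.75 FPKM (median) for Grpel2 to 165 FPKM for Pam16, and the ranges of the 2 groups overlap for every gene shown.

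The wider import pathway, 25 genes outside the rule (matrix chaperones, insertases, later peptidases and cristae organisers), had 21 members above 0 (84%, against 52% of all tested genes) and a median log2 fold change of 0.11. None passed, 3 were higher at an unadjusted p under 0.05 (12%, against 5.82% of all tested genes) and 0 lower. Mtch2, an outer membrane insertase in human cells, had 40.1, 42.8 and 47.7 CPM in Parkin KO hearts, against 27.5, 35.9 and 40.1 CPM in noninduced hearts (log2 fold change 0.27; edgeR, unadjusted p = 0.00969, adjusted p = 0.417). Romo1, an inner membrane protein linked to TIM23 assembly, was at 0.30, and Immp1l, a subunit of the inner membrane peptidase, at 0.39 (edgeR, unadjusted p = 0.0338 and 0.0494, adjusted p = 0.424 and 0.438). Hspa9, the matrix Hsp70 that works with Timm44 and Grpel1, was at 0.20 (edgeR, adjusted p = 0.447), and Pink1 at 0.09 (adjusted p = 0.803).

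Side by side with the other large families of mitochondrial proteins, the import genes' median of 0.17 compared with 0.20 for 44 tested complex I genes, of which 40 were above 0, and 0.10 for 76 mitochondrial ribosomal protein genes, of which 53 were above 0. At an unadjusted p under 0.05, 11 import genes (34.4%), 16 complex I genes (36.4%) and 22 ribosomal protein genes (28.9%) were higher, against 5.82% of all tested genes. Differences between the families were not tested.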

How the data were processed

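Counts of reads per gene and FPKM values were deposited by the authors for all 12 libraries. The deposited counts are whole numbers. The submitters' processing notes name TopHat2 2.0.10, Bowtie2 and HTSeq, and the mouse build mm10. For the deposited FPKM values, Cufflinks 2.1 was among the tools, per the same notes. Neither the annotation nor the counting mode, nor the handling of multiply mapped reads, is given in the sources used here. Groups and replicate numbers came from the labels, and columns headed wt were taken as the noninduced hearts of the same number. The labels say nothing of litters, batches or days. The p-values set group differences against the spread between these hearts. A litter, batch or day that followed the groups could not be told apart from them.

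Counts were tested in R 4.3.3 with edgeR 4.0.16 (TMM scaling, filterByExpr, quasi-likelihood F test, two-sided, group term alone) over 13050 genes, with Benjamini-Hochberg adjustment over all of them and a threshold of 0.05. Standard errors and 95% intervals are approximate, being computed from each estimate with its F statistic. CPM used TMM-scaled library sizes, and 1 count was worth 0.0548 to 0.0948 CPM. Ratios of paralogs were compared over the 924 splits of 12 libraries with a pseudocount of 0.5 CPM. The code was tested on simulated data. DESeq2 1.42.0, limma 3.58.1, other scalings and filters, and left-out libraries were the alternatives. Nothing in the labels says that the replicate numbers pair the hearts. Correlations of same-numbered libraries lay between -0.10 and 0.17, with the own number best for 1 of 6. Such weak correlations cannot exclude a pairing.

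Members and lists were chosen with earlier results of these data known. Named with values were the markers, the member of highest CPM and the member of smallest p in each role group, and members at an unadjusted p under 0.05 up to the 8 of smallest p, 15 in all. Timm13, Timm17b, Timm50, Hspa9, Pink1 and Glis2 were given fuller values after their results were seen. Positions are from GENCODE vM21 on GRCm38, and promoters from RefSeq. Exons of other genes cover over 10% of 8 members, and 7 have copies of at least 95% identity over at least 300 bases.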

Additional observations from a re-analysis of the deposited data

Results flagged for a closer look

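Of 44 groups of 6 values tested for a library far from the others (15 named genes and 7 ratios in 2 groups), 2 met the criterion, and chance alone gives about 1 in 20. Pmpcb, the catalytic subunit of the processing peptidase, stood at 74.7 CPM in noninduced library 2, while the remaining noninduced libraries held 81.4 to 85.0 CPM. The log2 ratio of Timm8a1 to Timm8b was -2.04 in Parkin KO library 3, against -2.82 to -2.59 in the other Parkin KO libraries. That library had the lowest Timm8b level of its group, 36.6 CPM.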

How the results depend on the processing

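Of 360 alternative values for the 15 named genes, 10 turned in sign, those of Pmpca, Tomm40 and Tomm7 given here, and 0 came to pass the threshold. No import gene passed in any alternative run. Pmpca was at -0.000116 with RLE size factors, -0.0424 without noninduced libraries 2 and 5, and -0.0441 to 0.0683 on leaving out 1 library. Tomm40 was at -0.00571 without noninduced libraries 2 and 5 and -0.0127 to 0.0886 on leaving out 1 library. Tomm7 was at -0.00317 without noninduced libraries 1 and 2. Percents in brackets in the next sentences are the matching shares over all tested genes. The count of 11 higher genes at an unadjusted p under 0.05 (5.82%) was 5 with library totals alone (4.01%). It was 7 with limma on FPKM (4.82%), 3 without noninduced libraries 1 and 3 (2.66%) and 4 without 2 and 5 (3.62%). It was 2 without libraries with Y-linked reads (2.15%), 1 without noninduced libraries 1 and 2 (1.83%) and 3 to 12 on leaving out 1 library (2.74 to 7.66%). The count of 1 lower gene (5.54%) was 0 without noninduced libraries 1 and 2 (2.94%) and 1 to 2 on leaving out 1 library (3.96 to 8.64%). The median of 0.17 was 0.0695 without noninduced libraries 1 and 2, a setting chosen after seeing the data, as was the replicate block for ratios. With library totals alone, 0 genes had groups that did not overlap. Members at 50 or more per length numbered 11 by FPKM and 4 by CPM per kilobase of exon. The replicate block left 0 members past the threshold, 10 higher at an unadjusted p under 0.05 (7.13% of all tested genes) and a median of 0.17. With that block no ratio changed in value, as pairing libraries cannot change a mean difference. The exact permutation p ran from 0.0312 to 0.688 over the 7 ratios (adjusted p 0.219 to 0.688), with none past the threshold. The smallest p that 6 pairs of libraries allow is 0.0312, which Timm17a to Timm17b reached. A single ratio at that limit could not pass after adjustment, so this setting cannot show that the ratio failed. The causes were not tested.

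Among ratios, Timm10 to Timm10b was at -0.0142 without noninduced libraries 1 and 3, -0.0460 without libraries with Y-linked reads and -0.0121 to 0.0772 on leaving out 1 library. Pmpca to Pmpcb was at 0.0102 without libraries with Y-linked reads. Without noninduced libraries 1 and 2, Pmpca to Pmpcb was at 0.0180, Timm8a1 to Timm8b at -0.0335 and Mtx1 to Mtx2 at 0.0392, the last at -0.187 to 0.0401 on leaving out 1 library. Depth limited Tomm20l and Timm8a2, with at most 5 counts.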
